A study of Mus musculus with 12 samples.

Results

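RBMX, its retrocopy RBMXL1 and 7 proteins that share its complexes or exons were followed at the RNA level when Rbmx or Rbmxl1 was lowered. The genes were chosen by name: Rbmx, Rbmxl1, the Tra2 genes Tra2a and Tra2b, the Sam68 family genes Khdrbs1 and Khdrbs3, and the scaffold attachment factor genes Safb, Safb2 and Sltm. They are 9 of the 55401 genes in the count tables, and 8 of the 9 had enough reads for a test. The libraries came from Neuro-2a, a mouse neuroblastoma line. All groups were transiently transfected with 1 µg of a GFP plasmid together with plasmids for artificial microRNAs built on miR30, whose stated total was 3 µg. The pooled plasmids are also given as 1 µg of each, which would make 2 µg for the pool against Rbmxl1, so an equal dose in all groups is not certain. The scramble group received a single microRNA plasmid with a scramble sequence, the Rbmx knockdown group 3 pooled plasmids that target Rbmx, and the Rbmxl1 knockdown group 2 that target Rbmxl1. Cells with GFP were collected by sorting after 48 hours, and each group held 4 libraries, numbered as biological replicates 1 to 4. Sorting selected for the GFP plasmid, not for the microRNA plasmids, so fewer cells with a transcript and less of it per cell cannot be told apart in these bulk libraries.

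RBMX, also known as hnRNP G, is a nuclear RNA-binding protein with an RNA recognition motif and a disordered tail rich in arginine and glycine. It binds nascent transcripts and takes part in the choice of splice sites. RBMXL1 is encoded by a copy of Rbmx that was reverse transcribed into an autosome and therefore has no introns in its coding sequence, while Rbmx itself lies on chromosome X. The Tra2 proteins are splicing activators with arginine-serine domains that bind purine-rich exon sequences, and RBMX binds them and can oppose them on shared exons. Sam68, the product of Khdrbs1, and its relative SLM2, the product of Khdrbs3, are STAR-type RNA-binding proteins that choose exons and bind RBMX. SAFB, SAFB2 and SLTM bind both DNA and RNA in the nucleus and associate with RBMX. The question addressed was whether the other copy, or any of these partners, was higher when one copy was reduced.

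The 2 copies differ at few bases, which decides what the read counts can tell. Over their coding sequences, 1176 bases in Rbmx and 1167 in Rbmxl1, 90.9% of aligned bases are identical. The first 150 coding bases, counted from the start codon of the transcript with the longest coding sequence, are shown with the 13 bases that differ between Rbmx and Rbmxl1 in capitals. The third line is the stretch of a transcript of Gm7324 (chromosome 14, 43697828 to 43715378, plus strand) that aligned best with these bases of Rbmxl1. It has 0 differences from Rbmxl1 over these 150 bases. The coding start of Gm7324 itself was not located. The sequences were read from the GENCODE M21 transcripts (GRCm38).
Rbmx: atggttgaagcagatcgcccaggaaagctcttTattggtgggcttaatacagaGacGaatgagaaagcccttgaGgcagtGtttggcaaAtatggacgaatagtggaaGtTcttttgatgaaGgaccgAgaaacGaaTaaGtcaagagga
Rbmxl1: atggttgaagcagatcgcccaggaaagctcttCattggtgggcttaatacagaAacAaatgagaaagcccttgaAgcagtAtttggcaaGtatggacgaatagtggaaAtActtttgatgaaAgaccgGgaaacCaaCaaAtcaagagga
Gm7324: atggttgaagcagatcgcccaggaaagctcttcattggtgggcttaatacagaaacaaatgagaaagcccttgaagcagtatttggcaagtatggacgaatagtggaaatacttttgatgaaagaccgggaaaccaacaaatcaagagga
Only 0.874% of the 50-base words in the Rbmx transcript occur in Rbmxl1, so the differences are close enough together to separate the 2 copies. In contrast, 74.2% of the 50-base words in the Rbmxl1 transcript occur in Gm7324, and 79% occur in at least 1 other gene. Reads with several alignments were left out of the gene counts, so the level of Rbmxl1 is a lower estimate, and its fold changes rest on the reads that could be placed. Among the partners, 18.3% of the words of Tra2b occur in other genes, mostly in Gm10254, and Safb and Safb2 share 14.5% and 13.8% of their words with each other. The shares were 0 for Tra2a and Sltm, 0.678% for Khdrbs1 and 1.46% for Rbmx.

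The libraries held 43.1 to 52.2 M reads in genes. Of 13 neuroblastoma markers, 12 reached 1 CPM in every group (CPM, reads per 1000000 reads in genes after scaling by the trimmed mean of M-values). Summed markers of fibroblasts (0.975 to 2.98 CPM), immune cells (0.453 to 1.48 CPM) and epithelium (0.0864 to 0.46 CPM) were near 0 in every library, with Col3a1, Cd3e, Epcam and Krt18 at 0 in all 12. The summed glial markers, at 12.9 to 19.9 CPM, came mostly from Mbp. For Safb2, Tra2a, Sltm and Tra2b, replicates 3 and 4 lay above replicates 1 and 2 in every group. Over the 3 groups, the mean CPM in replicates 3 and 4 was 1.48 times that in replicates 1 and 2 for Safb2. It was 1.46 times for Tra2a, 1.42 times for Sltm and 1.25 times for Tra2b. The ratio was 1.11 for Rbmx, 1.07 for Safb, 0.992 for Rbmxl1 and 0.899 for Khdrbs1. For Safb the sets overlapped in Rbmx knockdown (64.3 and 60 against 62.7 and 78.2 CPM). For Khdrbs1 they overlapped in Rbmxl1 knockdown (288 and 248 against 258 and 252 CPM). The labels do not say what the replicate number stands for. Changes are log2 fold changes ± SE, estimated by edgeR's quasi-likelihood model in which replicate number is a block, with p-values adjusted by Benjamini and Hochberg over the 17569 genes tested, and a gene is called at an adjusted p under 0.05. The fit without the block is given wherever it changes a call.

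Per kilobase of exon, Khdrbs1 was the most abundant of the 9 genes in scramble, at 39.2 ± 2.48 RPKM (CPM per kilobase of exon, SD, n = 4; libraries 36.9 to 41.9). Rbmxl1 followed at 20.1 ± 1.30 RPKM (18.5 to 21.7) and Rbmx at 15.6 ± 1.65 RPKM (13.3 to 16.9). Tra2b stood at 14.5 RPKM (12.9 to 16), Tra2a at 13.8 RPKM (12.5 to 15.1) and Safb at 11 RPKM (10 to 11.8). Sltm was at 8.33 RPKM (6.88 to 9.69) and Safb2 at 6.3 RPKM (5.02 to 7.77). The libraries of neighbours in this order overlapped for Rbmx and Tra2b, for Tra2b and Tra2a, and for Sltm and Safb2. Within single scramble libraries, Rbmx was above Tra2b in 4 of 4, Tra2b above Tra2a in 3 of 4 and Sltm above Safb2 in 4 of 4. The order below Khdrbs1 depends on the length used, which is 1.7 kb for Rbmxl1 and 4.33 kb for all annotated Rbmx exons together. Per kilobase of the transcript with the longest coding sequence, Khdrbs1 was still the highest (67.4 RPKM), followed by Tra2a (53.2 RPKM), Tra2b (39.3 RPKM) and Rbmx (32.1 RPKM). Safb (25.6 RPKM) and Sltm (25.4 RPKM) came next by that length, and Rbmxl1 (20.1 RPKM) and Safb2 (15.7 RPKM) stood below them. Khdrbs3 was practically silent: 3 reads in scramble replicate 1 and 0 in the other 11 libraries. A count of 0 allows up to 3 reads, which corresponds to 0.0574 to 0.0696 CPM in these libraries, for counting error only. SLM2 RNA was thus not detectable at this depth in 11 libraries, those of both knockdowns included.

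**Figure D1:**
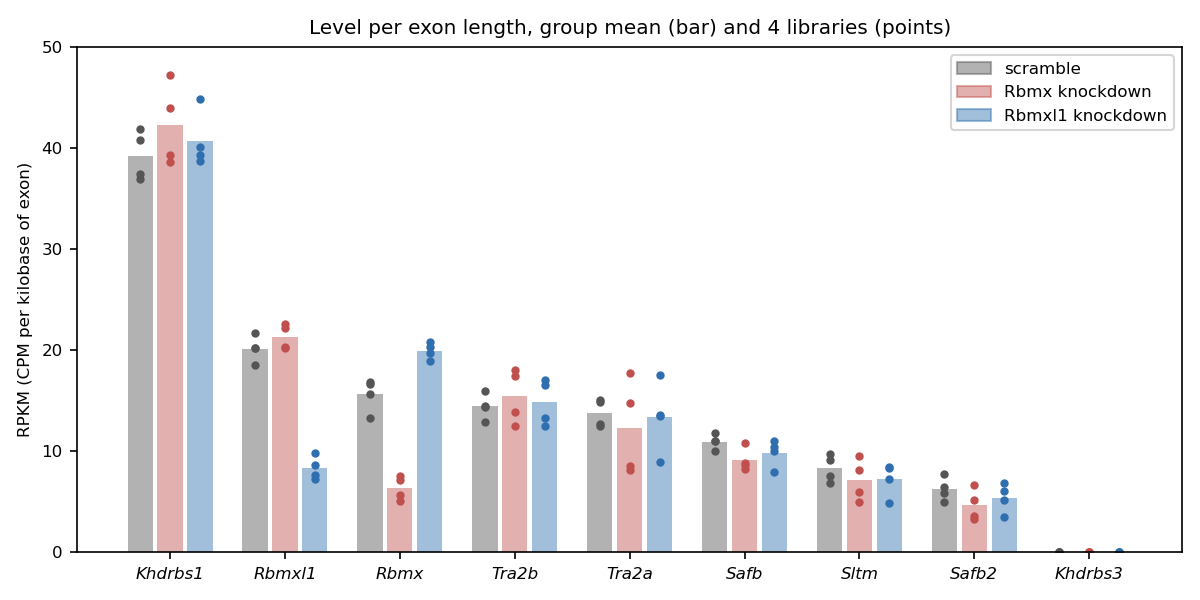
Level of each gene in RPKM (CPM per kilobase of annotated exon), with bars at the mean of 4 libraries and points for the libraries of scramble, Rbmx knockdown and Rbmxl1 knockdown. Khdrbs1 is the highest of the 9 in every group, Khdrbs3 is at or near 0, and each targeted gene is lowest in its own knockdown.

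Each targeted gene fell in its own knockdown. Rbmx (ENSMUSG00000031134; chromosome X, 57383530 to 57393036, minus strand, GRCm38) was at 57.6, 67.8, 72.2 and 73.3 CPM in scramble replicates 1 to 4 and at 22.2, 24.7, 31 and 32.6 CPM in Rbmx knockdown. All 4 Rbmx knockdown libraries lay below all 4 scramble libraries. This is a log2 fold change of −1.30 ± 0.08 (adjusted p 2.1e-07), so Rbmx RNA fell by 59.4%. Rbmxl1 (ENSMUSG00000037070; chromosome 8, 78505269 to 78508898, minus strand) was at 31.3, 36.7, 34.2 and 34.2 CPM in scramble and at 16.7, 12.9, 14.7 and 12.3 CPM in Rbmxl1 knockdown, again without overlap. Its log2 fold change was −1.27 ± 0.09 (adjusted p 3.2e-06). Over all genes, 8.35% were called in Rbmx knockdown and 4.46% in Rbmxl1 knockdown, and groups without overlap were found for 8.07% and 5.67% of genes. Among the 8 tested genes of the set, 2 were called in each knockdown. In the direct comparison of the knockdowns, Rbmx and Rbmxl1 were again 2 of 8 called, and in this fit they were the only genes called of all 17569 (0.0114%).

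When Rbmxl1 was reduced, Rbmx rose. It was at 81.9, 90, 85.3 and 88 CPM in Rbmxl1 knockdown replicates 1 to 4, and the lowest of these libraries was above the highest scramble library, at 73.3 CPM. Against the same-number scramble library, the log2 CPM was higher by 0.51, 0.41, 0.24 and 0.26. The estimate was 0.36 ± 0.07 on the log2 scale (95% interval 0.20 to 0.51), or 28.2% more Rbmx RNA, with an adjusted p of 0.0165. Without the replicate block the estimate was 0.35 ± 0.12 and it was not called (adjusted p 0.444). Within replicates 1 and 2 alone it was 0.47 (adjusted p 0.0661), and within replicates 3 and 4 alone 0.24 (adjusted p 0.045). In Rbmxl1 knockdown these fits called 30 and 992 genes in all. Leaving out any scramble library, or replicate 1 of Rbmxl1 knockdown, ended the call, with adjusted p-values of 0.0534 to 0.0676 and log2 fold changes of 0.29 to 0.37. Of all genes, 13.4% were higher in all 4 same-number pairs in this comparison, and 2.25% were called higher.

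When Rbmx was reduced, the level of Rbmxl1 moved little. Rbmxl1 stood at 34.2, 37.6, 38.3 and 34.4 CPM in Rbmx knockdown, within or just above the scramble libraries, and the groups overlapped. Its log2 fold change was 0.08 ± 0.09 (adjusted p 0.601), and its 95% interval ran from −0.10 to 0.26, so a rise of more than 20.1% lay outside the interval. Rbmxl1 exceeded its same-number scramble library in 4 of 4 pairs, by 0.13, 0.03, 0.16 and 0.01 on the log2 scale, and 17.7% of all genes were higher in all 4 pairs. Whether the responses of the 2 copies differ from each other was not tested.

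**Figure D2:**
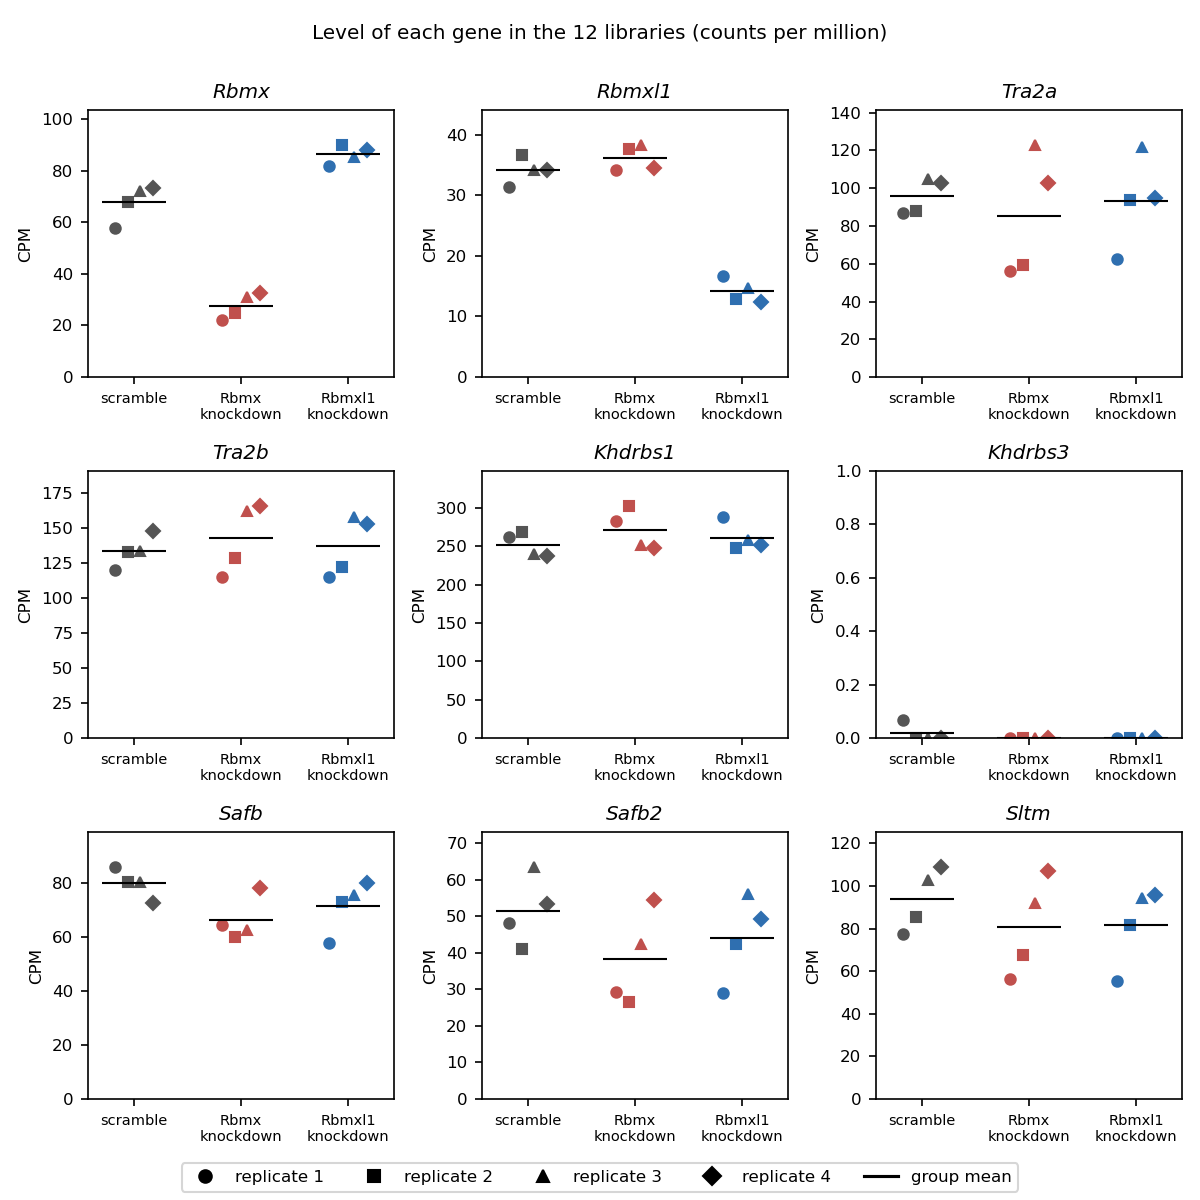
Level in CPM of the 9 genes in the 12 libraries, with a symbol for each replicate number and a line at the group mean. Rbmx in Rbmxl1 knockdown lies above all scramble libraries (81.9 against 73.3 CPM at the nearest), Rbmxl1 in Rbmx knockdown overlaps scramble, and the Tra2 and SAFB family genes overlap in all groups.

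The loss in one copy and the level of the other can be put together in more than a single way. As summed counts, Rbmx and Rbmxl1 were at 102 ± 8.69 CPM in scramble, 63.8 ± 5.69 CPM in Rbmx knockdown and 100 ± 1.80 CPM in Rbmxl1 knockdown (SD, n = 4). The sum was lower in Rbmx knockdown, with a log2 fold change of −0.68 ± 0.06 (adjusted p 7.3e-05). In Rbmxl1 knockdown it was −0.01 ± 0.06 (adjusted p 0.925), with a 95% interval of −0.14 to 0.11. A read count gives more weight to the longer transcript, so the sum was also taken per length, a measure added after the data were seen. Over all annotated exons, it was 31.8, 37.3, 36.8 and 37.1 RPKM in scramble, 25.3, 27.9, 29.7 and 27.8 RPKM in Rbmx knockdown, and 28.8, 28.4, 28.4 and 27.6 RPKM in Rbmxl1 knockdown. Both knockdowns lay below scramble without overlap, at 77.5% and 79.1% of it (exact two-sided permutation test, p = 0.0286 for each, the smallest p that 4 against 4 allows, and 0.0429 adjusted over 3 comparisons). This test permuted the libraries without regard to replicate number. Within replicate numbers the sum was lower in 4 of 4 pairs in both knockdowns, and the exact permutation p was 0.125, the smallest that 4 pairs allow. The knockdowns were not shown to differ from each other (exact permutation p = 0.629). By this measure Rbmxl1 made up 56.3% of the sum in scramble, 77.1% in Rbmx knockdown and 29.5% in Rbmxl1 knockdown.

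The result for Rbmxl1 knockdown turned on the length. With the lengths of the transcripts that hold the longest coding sequence, 2108 bases for Rbmx and 1695 for Rbmxl1, the sum was 52.2 RPKM in scramble, 34.4 RPKM in Rbmx knockdown and 49.3 RPKM in Rbmxl1 knockdown. Rbmx knockdown was then at 65.9% of scramble (exact permutation p = 0.0286). Rbmxl1 knockdown was at 94.3% (exact permutation p = 0.143) and lower in 3 of 4 pairs. The knockdowns did not overlap (exact permutation p = 0.0286). Within replicate numbers the exact permutation p was 0.125 for Rbmx knockdown against scramble and 0.125 between the knockdowns. It was 0.25 for Rbmxl1 knockdown against scramble. The share of Rbmxl1 in the sum was then 38.6% in scramble, 62.1% in Rbmx knockdown and 17% in Rbmxl1 knockdown, so which copy made up more of the sum in scramble also turned on the length. Under all 3 measures the sum was lower in Rbmx knockdown. In Rbmxl1 knockdown it was lower by one measure and not shown to differ by the other two. Reads of Rbmxl1 that match Gm7324 are missing from all 3.

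With all 12 libraries and the replicate block, none of the 6 tested partners was called higher in either knockdown. In Rbmx knockdown, 1 of the 6 partners was called, Safb2, and it was lower, where 4.19% of all genes were called lower. At an unadjusted p under 0.05 there were 3 of 6 (Safb, Safb2 and Sltm), as for 24.9% of all genes. DESeq2 with the block called 3 partners and edgeR with no filter on low counts 4 in Rbmx knockdown, all lower, where these fits called 2013 and 2085 genes in all against 1467 in edgeR with the block, and edgeR without the block called 0. In Rbmxl1 knockdown, 0 of 6 were called by edgeR, DESeq2 or limma-voom with the block, and 1 had an unadjusted p under 0.05, as 19.8% of all genes had. With no filter, 2 were called lower there, Safb2 and Sltm, among 1243 genes called in all. The median log2 fold change of the 6 was −0.24 in Rbmx knockdown and −0.12 in Rbmxl1 knockdown, beside −0.00 and 0.01 over all genes. The 95% intervals from edgeR with the block are not adjusted for the number of genes. No tested partner's interval reached above a rise of 17.5% in Rbmx knockdown or 13.6% in Rbmxl1 knockdown. Without the block the intervals are wider, and their upper ends reached 30.4% and 39.8%. Between the knockdowns, the partners differed by −0.23 to 0.06 on the log2 scale, and 0 of 6 were called (lowest adjusted p 0.876, and 0 with an unadjusted p under 0.05, where 5.7% of all genes had one).

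**Figure D3:**
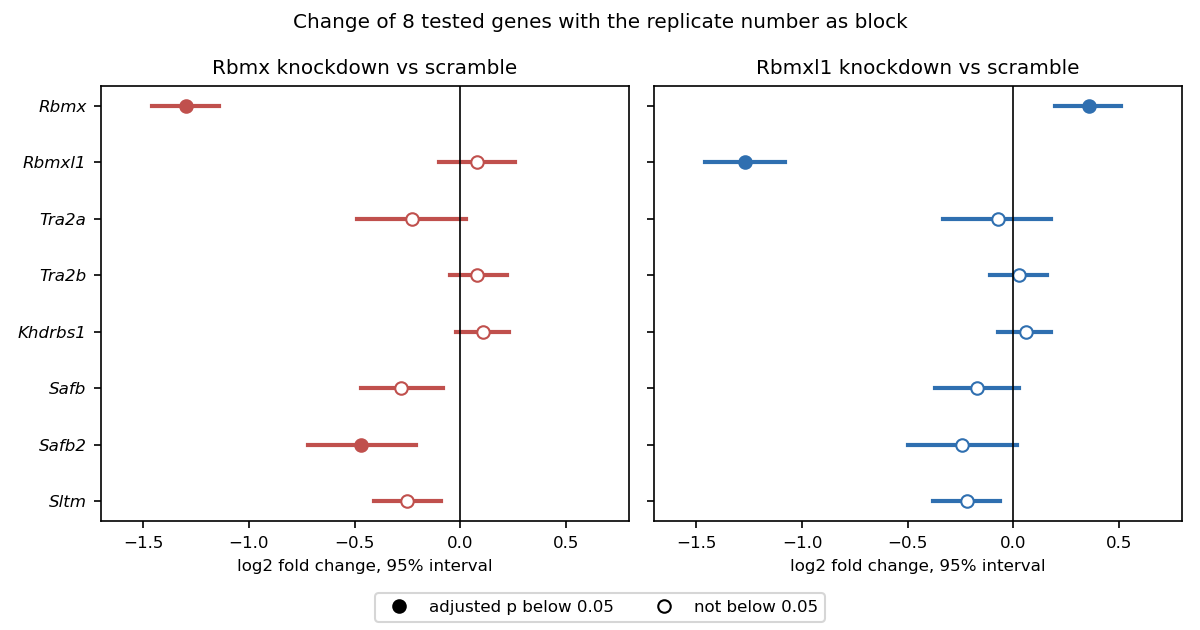
Log2 fold change against scramble with its 95% interval for the 8 tested genes, from the edgeR fit blocked on replicate number, where filled points have an adjusted p under 0.05. Besides the targeted genes, Rbmx in Rbmxl1 knockdown (0.36) and Safb2 in Rbmx knockdown (−0.47) are filled.

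The Tra2 genes, the splicing activators, were not called by edgeR with the block over all 12 libraries. Tra2b (ENSMUSG00000022858; chromosome 16, 22244549 to 22266005, minus strand) was at 120, 133, 134 and 148 CPM in scramble, 115, 129, 162 and 166 CPM in Rbmx knockdown, and 115, 122, 158 and 153 CPM in Rbmxl1 knockdown. The groups overlapped, and the log2 fold changes were 0.08 ± 0.06 (adjusted p 0.452) and 0.03 ± 0.06 (adjusted p 0.861). Replicates 1 and 2 of both knockdowns were slightly below their scramble libraries and replicates 3 and 4 slightly above. Within replicates 3 and 4 alone, Tra2b was called higher in Rbmx knockdown (0.21, adjusted p 0.0497), while within replicates 1 and 2 alone it was at −0.04 (adjusted p 0.798). In Rbmx knockdown, the fit to replicates 3 and 4 called 1818 genes in all, and that to replicates 1 and 2 called 4.

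Tra2a (ENSMUSG00000029817; chromosome 6, 49243924 to 49264033, minus strand) differed between the replicate sets. Its CPM was 86.9, 88, 105 and 103 in scramble, 56.4, 59.6, 123 and 103 in Rbmx knockdown, and 62.3, 94, 122 and 94.7 in Rbmxl1 knockdown. The log2 fold change was −0.23 ± 0.12 (adjusted p 0.254) in Rbmx knockdown and −0.07 ± 0.12 (adjusted p 0.794) in Rbmxl1 knockdown. With no filter on low counts it was called lower in Rbmx knockdown (−0.23, adjusted p 0.0217). In Rbmx knockdown it was −0.59 within replicates 1 and 2 (adjusted p 0.124) and 0.11 within replicates 3 and 4 (adjusted p 0.445). The test of that difference gave 0.71 ± 0.17, with an unadjusted p of 9.7e-04 and an adjusted p of 0.251. Over the 8 genes this test of the set against the knockdown called 0 in Rbmx knockdown and 0 in Rbmxl1 knockdown by edgeR, the tool used for it, with 4 and 2 at an unadjusted p under 0.05. Over all genes it called 0%, and 11.1% and 8.36% had an unadjusted p under 0.05. The summed count of Tra2a and Tra2b was at −0.04 (adjusted p 0.815) and −0.01 (adjusted p 0.956) in the 2 knockdowns.

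**Figure D4:**
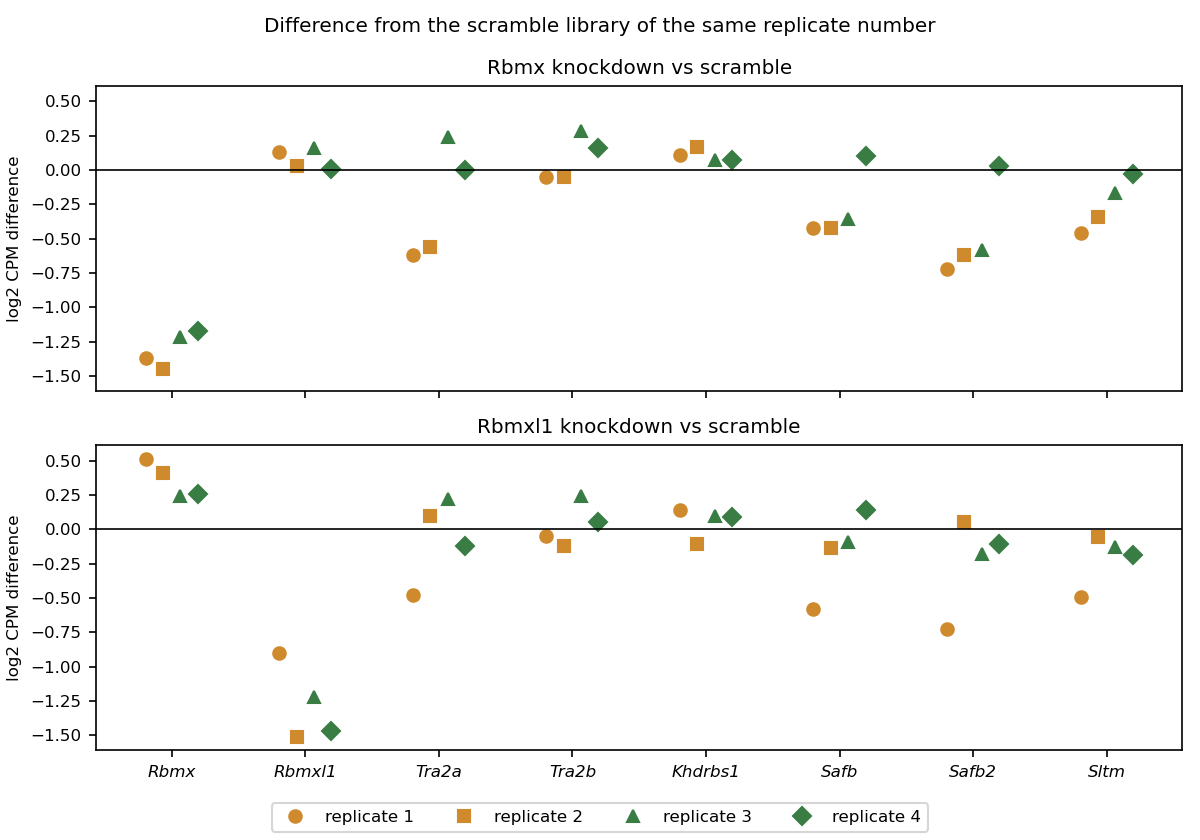
Log2 CPM of each knockdown library minus that of the scramble library with the same replicate number, for 8 genes, with replicates 1 and 2 in orange and 3 and 4 in green. Tra2a in Rbmx knockdown is at −0.62 and −0.56 in replicates 1 and 2 and at 0.24 and −0.00 in replicates 3 and 4, and Safb2 is below 0 in 3 of 4 pairs.

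Khdrbs1 (ENSMUSG00000028790; chromosome 4, 129703164 to 129742303, minus strand), the gene for Sam68, was the steadiest of the 6 tested partners, with a coefficient of variation of 6.32%, 9.61% and 6.94% in the 3 groups. It was at 262, 269, 240 and 237 CPM in scramble, 283, 303, 252 and 248 CPM in Rbmx knockdown, and 288, 248, 258 and 252 CPM in Rbmxl1 knockdown. The groups overlapped. The log2 fold changes were 0.11 ± 0.06 (adjusted p 0.285) and 0.06 ± 0.06 (adjusted p 0.656), with 95% intervals of −0.02 to 0.23 and −0.07 to 0.18. Khdrbs1 was higher in 4 of 4 same-number pairs in Rbmx knockdown, as were 17.7% of all genes, and in 3 of 4 in Rbmxl1 knockdown. Since Khdrbs3 (ENSMUSG00000022332; chromosome 15, 68928420 to 69101211, plus strand) was close to 0 throughout, the summed count of the family is that of Khdrbs1 but for 3 reads in scramble replicate 1.

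The SAFB family, which helps to anchor chromatin and RNA in the nucleus, held the called decrease among the partners in Rbmx knockdown. Safb2 (ENSMUSG00000042625; chromosome 17, 56560965 to 56584585, minus strand) was at 48.1, 41, 63.5 and 53.3 CPM in scramble and at 29.2, 26.6, 42.4 and 54.5 CPM in Rbmx knockdown. It was lower than in the same-number scramble library in replicates 1 to 3, by 0.72, 0.62 and 0.58 on the log2 scale, and not in replicate 4 (0.03), so the groups overlapped. The log2 fold change was −0.47 ± 0.12 (95% interval −0.72 to −0.21; adjusted p 0.0289). The fit without the block gave −0.43 and did not call it (adjusted p 0.543). Within replicates 1 and 2 it was −0.67 (adjusted p 0.13) and within replicates 3 and 4 −0.27 (adjusted p 0.119). The call was lost without replicate 1, 2 or 3 in all groups (adjusted p 0.0746, 0.0695 and 0.123). It was also lost without scramble replicate 1 or 3 (adjusted p 0.121 and 0.0925), or without Rbmx knockdown replicate 1, 2 or 3 (adjusted p 0.0679, 0.11 and 0.103). In Rbmxl1 knockdown Safb2 was at 29, 42.3, 56.1 and 49.2 CPM, with replicate 1 far below its scramble library and the other 3 close to theirs. The log2 fold change there was −0.24 ± 0.12 (adjusted p 0.29).

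Safb (ENSMUSG00000071054; chromosome 17, 56584825 to 56606294, plus strand) was at 85.9, 80.3, 80.2 and 72.7 CPM in scramble, 64.3, 60, 62.7 and 78.2 CPM in Rbmx knockdown, and 57.6, 72.9, 75.5 and 79.9 CPM in Rbmxl1 knockdown. Replicates 1 to 3 of Rbmx knockdown were below every scramble library and replicate 4 was not. The log2 fold change was −0.28 ± 0.09 in Rbmx knockdown (adjusted p 0.0771) and −0.17 ± 0.09 in Rbmxl1 knockdown (adjusted p 0.339), neither called. Sltm (ENSMUSG00000032212; chromosome 9, 70542754 to 70592234, plus strand) was at 77.6, 85.5, 103 and 109 CPM in scramble, 56.2, 67.4, 92 and 107 CPM in Rbmx knockdown, and 55.3, 81.9, 94.2 and 95.7 CPM in Rbmxl1 knockdown. It was below its same-number scramble library in 4 of 4 pairs in both knockdowns, where 16.8% and 12.6% of all genes were. The log2 fold changes of −0.25 ± 0.08 (adjusted p 0.054) and −0.22 ± 0.08 (adjusted p 0.115) were not called.

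The summed count of Safb, Safb2 and Sltm was 225 ± 19.2 CPM in scramble, 185 ± 42.3 CPM in Rbmx knockdown and 197 ± 39.3 CPM in Rbmxl1 knockdown (SD, n = 4). It was called lower in Rbmx knockdown, at −0.31 ± 0.09 (adjusted p 0.0394), but not without the block (−0.28, adjusted p 0.568). The call was also lost without replicate 1, 2 or 3 (adjusted p 0.106, 0.116 and 0.137) and kept without replicate 4 (adjusted p 0.0339). In Rbmxl1 knockdown it was at −0.21 ± 0.09 (adjusted p 0.183). Safb and Safb2 share words, and reads with several alignments were not counted. The share of such reads in a library was higher in Rbmx knockdown than in the same-number scramble library in 4 of 4 pairs (21.4% to 26.5% against 20.6% to 25.7%). It was higher in Rbmxl1 knockdown in 3 of 4 pairs, and its part in the SAFB values was not tested.

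Safb2 and Safb are neighbours that start head to head on opposite strands, with 239 bases between their annotated starts. Both genes lay lower in replicates 1 to 3 of Rbmx knockdown. So did Sltm, with same-number differences of −0.46, −0.34, −0.17 and −0.03 in replicates 1 to 4. A part of the interval in these values was not tested. The interval is shown at chr17:56584586-56584824 (plus strand, GRCm38.p6, from RefSeq's promoter table), with every CG in capitals.
Safb2-Safb: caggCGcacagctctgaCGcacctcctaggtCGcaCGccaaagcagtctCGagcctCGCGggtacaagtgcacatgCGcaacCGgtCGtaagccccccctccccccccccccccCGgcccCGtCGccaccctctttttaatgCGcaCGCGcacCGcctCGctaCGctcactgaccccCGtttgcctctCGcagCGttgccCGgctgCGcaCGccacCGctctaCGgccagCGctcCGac
It holds 29 CG dinucleotides and 69.9% G and C. Of 32851 promoter windows in the RefSeq table (250 bases before to 50 after each start), the median was 52.7% and 9.58% were at or above the value of this interval. RefSeq places the start of Safb 157 bases further on. Sltm lies on another chromosome.

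The SAFB genes also varied together among the libraries. On log2 CPM centred on the mean of each replicate number, over 12 libraries that include all 3 groups, Pearson's r was 0.92 for Safb and Safb2, 0.92 for Safb2 and Sltm, and 0.85 for Safb and Sltm. Tra2a and Sltm gave 0.80, while Khdrbs1 went the other way from Safb2, at −0.80. Tra2b and Safb2 gave −0.20. These values describe the 12 libraries, which share replicate numbers, treatments and scaling, and carry no test. By the same measure, the genes most like Rbmx among 9374 with a mean of at least 10 CPM were Mfap3 (0.93), Trmt44 (0.91) and Bcl2 (0.89). Those most like Rbmxl1 included Abce1 and Arf2 (0.97 each), and those most like Safb2 were Dna2, 1600020E01Rik and Ubp1 (0.98 each). Each is among the highest of all values compared.

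A wider list of 37 genes around RBMX, Tra2 and Sam68 held 30 with enough reads for a test. In Rbmx knockdown 1 was called higher, 11 lower and 18 were not called. In Rbmxl1 knockdown 0 were called higher, 4 lower and 26 were not called. Of all genes, 4.16% were called higher and 4.19% lower in Rbmx knockdown, and 2.25% and 2.2% in Rbmxl1 knockdown. The medians were −0.17 and −0.12 on the log2 scale. Without the block none of the 30 was called in either knockdown, where the fit called 0.00569% of all genes in each.

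SR proteins, the arginine-serine splicing factors that act with Tra2 and RBMX on exons, made up 7 of the 12 called in Rbmx knockdown, out of 10 tested. Srsf5 was lower in both knockdowns, at −0.69 ± 0.14 (adjusted p 0.00952) and −0.73 ± 0.14 (adjusted p 0.0108), and no knockdown library overlapped scramble. Its same-number differences were −0.82, −0.55, −0.85 and −0.54 in Rbmx knockdown, and −1.51, −0.62, −0.38 and −0.51 in Rbmxl1 knockdown. Srsf6 fell to a like extent, by 0.53 (SE 0.09, adjusted p 0.00675) and by 0.55 (SE 0.09, adjusted p 0.00644), and was lower in 4 of 4 pairs in both. Its same-number differences were −0.61, −0.51, −0.62 and −0.38 in Rbmx knockdown, where no library overlapped scramble. In Rbmxl1 knockdown they were −1.01, −0.48, −0.28 and −0.45, with replicate 1 the farthest, and the groups overlapped. Srsf7 (−0.39, adjusted p 0.0192) and Srsf3 (−0.22, adjusted p 0.0312) were called lower in Rbmx knockdown, as were Srsf2 (−0.42, adjusted p 0.0341) and Srsf11 (−0.33, adjusted p 0.0423). In Rbmxl1 knockdown these 4 were between −0.23 and −0.08 and not called. The gene called higher was Srsf9, at 0.26 ± 0.07 in Rbmx knockdown (adjusted p 0.0297) and 0.23 in Rbmxl1 knockdown (adjusted p 0.0696). Srsf1, Srsf4 and Srsf10 were not called in either.

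Of the kinases that phosphorylate SR proteins and the importer that carries them into the nucleus, 2 of 7 tested were called in Rbmx knockdown and 0 in Rbmxl1 knockdown. The 2 were the CLK kinase genes Clk1 at −0.52 ± 0.10 (adjusted p 0.0101) and Clk4 at −0.39 ± 0.09 (adjusted p 0.0196). In Rbmxl1 knockdown Clk1 was at −0.30 (adjusted p 0.105) and Clk4 at −0.32 (adjusted p 0.0587). The other two CLK genes were not called in either, with Clk2 at −0.24 (adjusted p 0.179) and 0.04 (adjusted p 0.898) and Clk3 at −0.18 (adjusted p 0.128) and −0.13 (adjusted p 0.305). The same held for the kinase genes Srpk1, at −0.17 (adjusted p 0.0734) and −0.10 (adjusted p 0.346), and Srpk2, at −0.13 (adjusted p 0.117) and −0.14 (adjusted p 0.129), and for the importer gene Tnpo3 (0.11 and 0.03).

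Among 11 tested genes with exons known to be controlled by RBMX, Tra2 or Sam68 family proteins, 3 were called lower in Rbmx knockdown and 2 in Rbmxl1 knockdown. Rev3l, which encodes the catalytic subunit of a translesion DNA polymerase and has a very long exon, was at −0.34 ± 0.07 (adjusted p 0.00921) and −0.25 ± 0.07 (adjusted p 0.0428), without overlap with scramble in either. Mapt, the gene for tau, was at −0.27 ± 0.06 (adjusted p 0.0176) and −0.29 ± 0.06 (adjusted p 0.0211). Atrx, a chromatin remodeler gene, was called in Rbmx knockdown (−0.27 ± 0.06, adjusted p 0.0187) and was at −0.22 in Rbmxl1 knockdown (adjusted p 0.0551). Etaa1, Chek1, Nasp, Smn1, Nrxn2, Nrxn3, Bcl2l1 and Ccnd1 were not called. Etaa1 lay below scramble without overlap in Rbmx knockdown (−0.16, adjusted p 0.22), where groups did not overlap for 8.07% of all genes. In Rbmxl1 knockdown it overlapped scramble (−0.19, adjusted p 0.192). These are gene totals and say nothing of which exons were used. Of the relatives, Rbm3 and Cirbp were tested and not called, and Rbmxl2, Rbmy and Khdrbs2 had too few reads, as had Srsf12, Srpk3 and Cd44 among others.

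**Figure D5:**
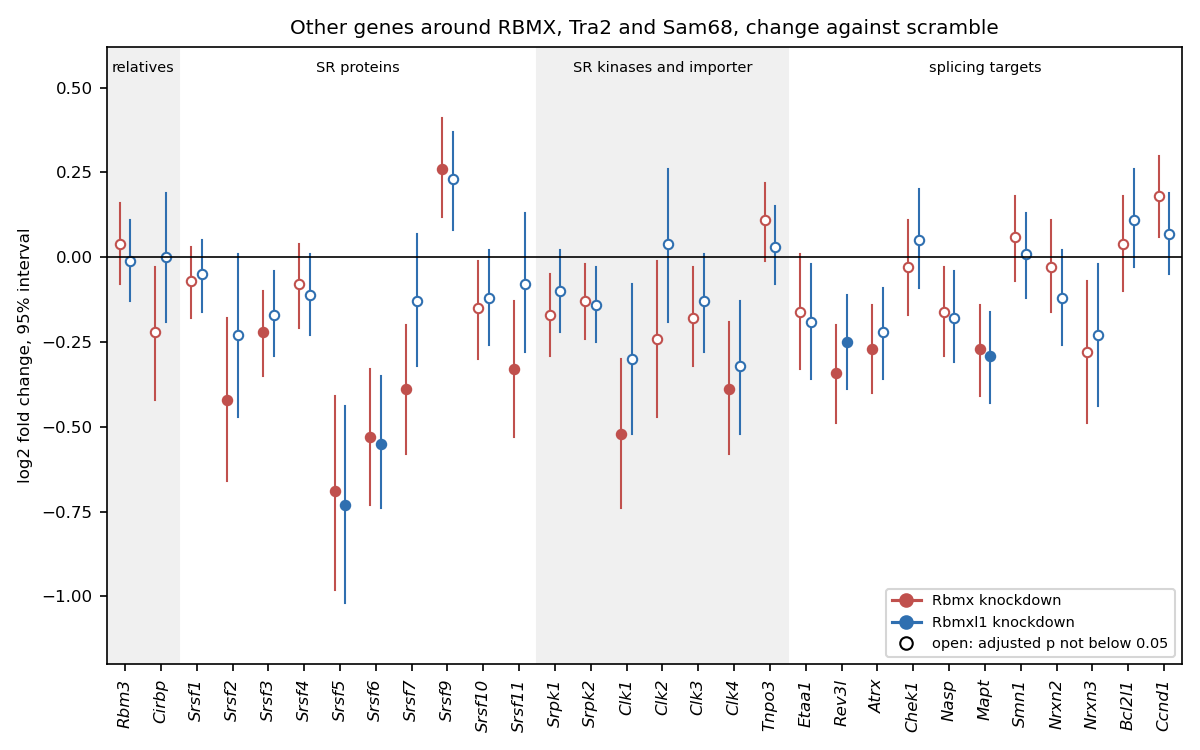
Log2 fold change against scramble with its 95% interval for 30 tested genes of the wider list, by group, in Rbmx knockdown (red) and Rbmxl1 knockdown (blue), where open points are not below an adjusted p of 0.05. Srsf5 (−0.69 and −0.73) and Srsf6 (−0.53 and −0.55) are the lowest in both, and Srsf9 (0.26) is the only filled point above 0.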

How the data were processed

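RNA depleted of ribosomal RNA was sequenced from stranded libraries of 12 sorted cell samples. The authors deposited raw counts: whole reads per Ensembl gene, without normalization. Per the submitters' processing notes, the tools were cutadapt, STAR 2.5.3a, HTSeq 0.6.1p1, R 3.3.2 and DESeq2 1.16.1, and the build was mm10. The strand setting and the annotation release are not given in the sources used here. Rows that name no gene held 52.3% to 57.4% of each file and were left out. Of 55401 identifiers, 55141 were in GENCODE M21, which gave names, positions and exon lengths. None of the 9 genes has an exon that overlaps an exon of another gene. No 2 libraries held identical values.

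Counts were fitted with edgeR 4.0.16 in R 4.3.3 (filterByExpr with a minimum count of 10 and total of 15, TMM scaling, quasi-likelihood F-test) to all 12 libraries with a common estimate of spread and the replicate number as block. Same-numbered libraries of different groups deviated together from their group means (r 0.20 to 0.52 over 12 pairs). Differently numbered ones gave 0.10 to 0.43 within replicates 1 and 2 or 3 and 4 (12 pairs) and −0.57 to −0.13 between these sets (24 pairs). The block follows the replicate number by plan, and the labels do not say what the number marks. The ranges for same-numbered and differently numbered libraries of a set overlapped. These values therefore do not tell pairing by number from pairing by set. The labels call the replicates biological but name no separate cultures, so p-values measure the spread between these samples, which may be technical in part. Alternatives were no block, DESeq2 1.42.0, voom in limma 3.58.1, RLE or no scaling factors, no filter, leaving out each replicate number or library, and each replicate set alone.

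The genes, the wider list and the block were chosen with earlier results of these data known. Named were all 9 genes, from the wider list the called genes with the lowest adjusted p (at most 10), and the 3 genes most correlated with Rbmx, Rbmxl1 and any called partner. Srsf2 and Srsf11 were named after their values were seen, to complete the count of SR proteins. A few genes that these rules or lists name are not reported here.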

Additional observations from a re-analysis of the deposited data

How the results depend on the processing

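The replicate block decided most calls. Without the replicate block, 1 of the 8 genes was called in Rbmx knockdown (2 with it), 1 in Rbmxl1 knockdown (2 with it), 0 partners in Rbmx knockdown (1 with it), 1 family total (2 with it) and 0 genes of the wider list (16 with it over both knockdowns). In the edgeR fits the block changed no call in the direct comparison of the knockdowns. In Rbmx knockdown, DESeq2 called 4 genes, 3 of them partners (Safb, Safb2 and Sltm), RLE scaling called 2 partners, and the fit with no filter called 5 genes, 4 of them partners (Tra2a, Safb, Safb2 and Sltm). Replicates 1 and 2 alone gave 1 gene and 0 partners. In Rbmxl1 knockdown, no filter gave 4 genes and 2 partners (Safb2 and Sltm), and replicates 1 and 2 alone gave 1 gene. Leaving out 1 replicate number or library gave 1 to 4 genes and 0 to 3 partners in Rbmx knockdown, 1 to 3 genes and 0 to 1 partners in Rbmxl1 knockdown, 1 to 2 family totals and, for the wider list, an alternative added after seeing the data, 6 to 12 calls. The wider list gave 10 calls without replicate 1, 6 without replicate 3 and 9 without replicate 4. The Rbmx rise in Rbmxl1 knockdown was not called without replicate 1 (0.30, adjusted p 0.0767) or replicate 4 (0.39, adjusted p 0.0564). Over all genes, 1467 were called in Rbmx knockdown and 783 in Rbmxl1 knockdown, against 1 and 1 without the block. The counts were 4 and 30 in replicates 1 and 2 alone, and 1818 and 992 in replicates 3 and 4 alone. Leaving out a library or number gave 146 to 1904 and 100 to 1032. In Rbmx knockdown DESeq2 called 2013, RLE scaling 1404 and the fit with no filter 2085. DESeq2 called 1279 and the fit with no filter 1243 in Rbmxl1 knockdown. Between the knockdowns the 2 calls became 10 with DESeq2, 86 with no filter, 4 in replicates 1 and 2, 18 in replicates 3 and 4, and 2 to 7 on leaving out a library or number. With transcript in place of exon lengths, also added after seeing the data, the summed Rbmx and Rbmxl1 level moved to 65.9% and 94.3% of scramble. Permuted within replicate numbers (the replicate block, added likewise), 77.5% and 79.1% with exon lengths no longer passed (exact permutation p = 0.125 for each), since 4 pairs allow no lower p. With transcript lengths, neither 65.9% nor the difference between the knockdowns passed then (exact permutation p = 0.125 for each). Besides the changes named, the cause was not tested.

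Changes of sign were confined to values that were not called by edgeR with the block over all 12 libraries. Of these, Tra2b was called in Rbmx knockdown in replicates 3 and 4 (0.21, adjusted p 0.0497), and Tra2a with no filter (−0.23, adjusted p 0.0217). In Rbmx knockdown Tra2b was −0.04 in replicates 1 and 2, Tra2a was 0.11 in replicates 3 and 4, and the Tra2 total was 0.03 to 0.04 without replicate 2 or 1. In Rbmxl1 knockdown Tra2a was 0.06 without replicate 1 or scramble replicate 1, 0.00 without Rbmxl1 knockdown replicate 1 and 0.04 in replicates 3 and 4. Tra2b there was −0.04 without replicate 3 or scramble replicate 3, −0.01 without Rbmxl1 knockdown replicate 3 and −0.08 in replicates 1 and 2. Safb was 0.01 in replicates 3 and 4, the Tra2 total 0.01 without the replicate block and 0.05 without replicate 1, and the Rbmx and Rbmxl1 total 0.01 without replicate 3 or 4. Between the knockdowns, Tra2a was 0.01 without replicate 2 and 0.07 in replicates 3 and 4. Khdrbs1 was −0.02 without replicate 2, −0.01 without Rbmxl1 knockdown replicate 2 and −0.03 in replicates 3 and 4. Sltm was 0.06 without replicate 2, 0.03 without Rbmx knockdown replicate 2, 0.04 without Rbmxl1 knockdown replicate 2 and 0.07 in replicates 3 and 4. Over the fits that left out a library or number, the opposite ends were −0.19 for Tra2a and 0.08 for Tra2b in Rbmxl1 knockdown, −0.27 for Tra2a, 0.09 for Khdrbs1 and −0.10 for Sltm between the knockdowns, and −0.13 and −0.09 for the Tra2 total in Rbmx and Rbmxl1 knockdown. Rbmx in its own knockdown (−1.36 to −1.24) and Rbmxl1 in its own (−1.41 to −1.19) were called in all 16 fits that left out a library or replicate number. Depth limits Khdrbs3, at 3 reads in 12 libraries, and 7 genes of the wider list that had too few reads for a test.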
